A study of Mus musculus with 2 samples.

Results

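The 5 genes of a pair of chemokine axes were followed across tumour-infiltrating immune cells of mice: the ligands Cxcl9 and Cxcl10 with their receptor Cxcr3, and the ligand Cxcl16 with its receptor Cxcr6. They are 5 of the 15416 genes of the deposited single-cell count matrix, taken by symbol, and all 5 have a row. The matrix holds 5976 cells from tumours of 3 mice, collected by a sort for the surface proteins CD45 and JAML. JAML is a junctional adhesion molecule-like receptor found on several leukocytes, and CD45 is the common leukocyte surface protein. There is a single experimental group: the hashtag antibodies that mark the 3 mice carry the names B16F10 (a mouse melanoma line) and isotype control, numbered I to III, and the labels give no age, sex, strain or genotype. All cells went through the same 10x Genomics 5' v2 library, so the mice were processed together, and the GEO samples are the gene expression and the antibody-tag library of that sort. Every comparison below sets cells of 1 kind against cells of another kind from the same animals.

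The cell type label reads T cells, and the extraction text has the word TREG, but other lineages were abundant: 2801 cells (46.9%) lie in the authors' Cd3g and Pdcd1 clusters, 1317 cells (22.0%) in their Siglech cluster and 1858 cells (31.1%) in their remaining clusters, called antigen-presenting cells here. The authors' finer clustering gives 16 subclusters, numbered 0 to 15. By marker genes, subclusters 1, 5, 7, 8, 10, 14 and 15 were T cell-like with Cd8a or Cd8b1 among their markers. Subcluster 3 carried natural killer or ILC1 markers (Ncr1, Klrb1c, Eomes) together with Trdc, Tcrg-C2 and Tcrg-C4 of gamma-delta T cells and with Cd3d, so it is called by its number. Subclusters 0 and 9 were plasmacytoid dendritic cell-like, 2 macrophage-like, and 4 type 2 and 6 type 1 conventional dendritic cell-like. Subcluster 12 was mature migratory dendritic cell-like. Subcluster 11 was a dividing group with 7 of 8 type 1 conventional dendritic cell markers above the other cells. Its summed type 2 markers were uneven, at 910, 752 and 159 CPM in mice 1, 2 and 3. In subcluster 6 that sum was 99.7, 140 and 73.3 CPM, so subcluster 11 is called by its number. Subcluster 13, led by Apod, Cyp7b1 and Pi16, is called by its number. Jaml itself was found in all 16, from 73.1 CPM in subcluster 5 to 651 CPM in subcluster 15.

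CXCL9 and CXCL10 are small secreted chemokines that macrophages, dendritic cells and stromal cells make mainly in answer to interferon gamma, CXCL10 also in answer to type I interferon. Their receptor CXCR3 guides activated and memory T cells, natural killer cells and plasmacytoid dendritic cells, and the membrane peptidase DPP4 can shorten both ligands. CXCL16 is unusual in being made as a membrane protein, which the proteases ADAM10 and ADAM17 release, and its receptor CXCR6 marks effector, resident and innate-like lymphocytes in tissues.

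Levels are given as CPM, the UMI (unique molecular identifier) counts of a gene summed over the cells of a subcluster in a mouse and divided by all UMIs of that class (counts per 1000000), for classes with at least 10 cells. The 3 mice gave 2445, 1184 and 2339 cells with a median of 16912, 15917 and 11648 UMIs per cell. Subcluster 14 is left out for mouse 2 and subcluster 15 for mouse 1, with 9 cells each. These subclusters were built on all genes, the 5 members included, so the levels below are a description and carry no test.

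**Figure D1:**
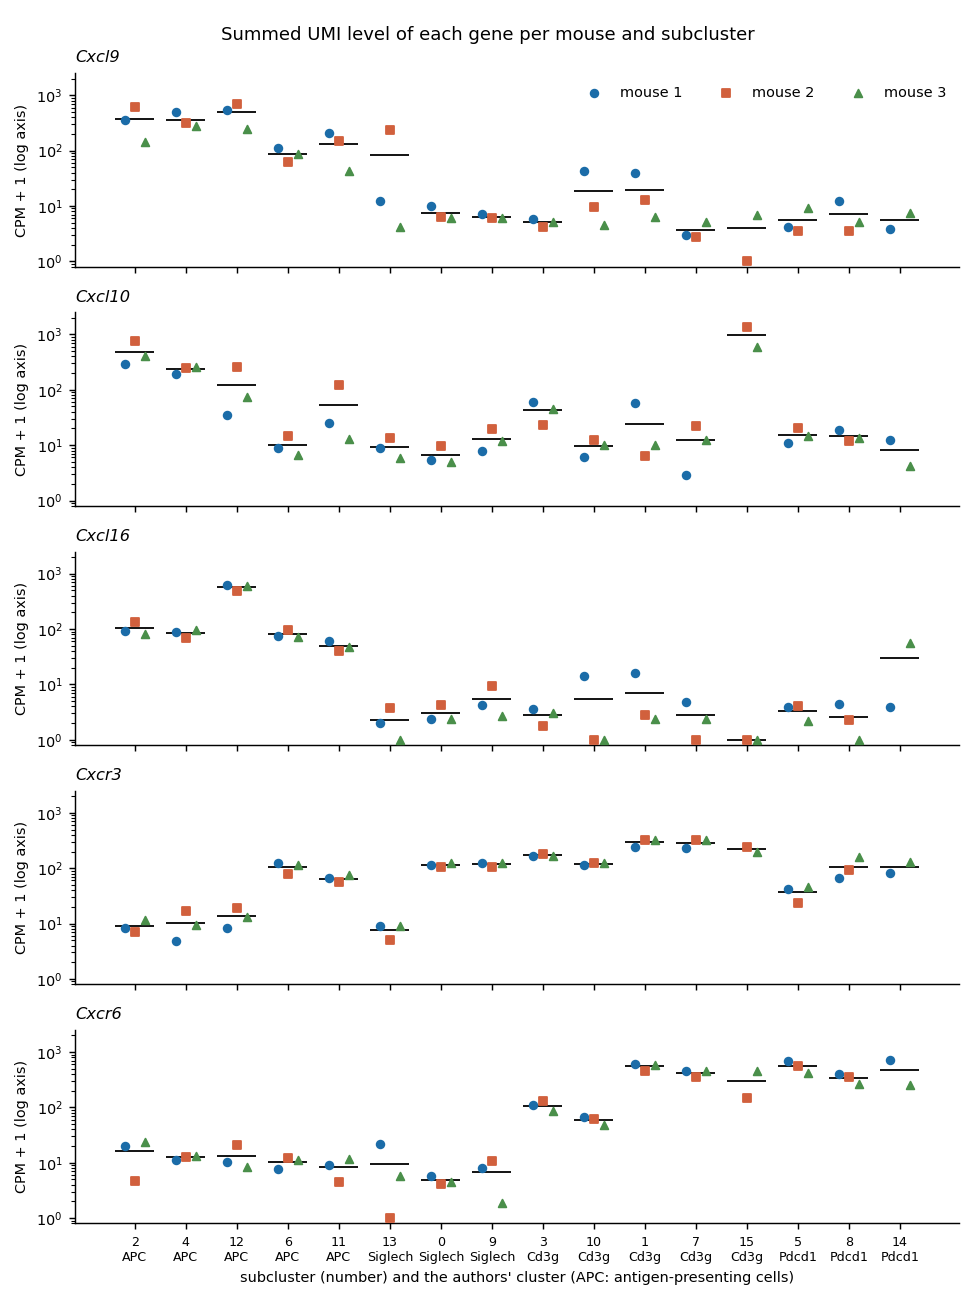
CPM plus 1 (log axis) of each of the 5 genes, 1 point per mouse (circle, square, triangle) and a line at the mean over mice, for the 16 subclusters, with APC (antigen-presenting cells) or the authors' cluster name below each number. The ligands stand high on the left, in the antigen-presenting subclusters, and Cxcr6 on the right, while Cxcr3 spans lymphoid, plasmacytoid and type 1 dendritic cell-like subclusters. Cxcl10 has its highest mean, 983 CPM, in the T cell-like subcluster 15.

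Cxcl9 lies on mouse chromosome 5 (mm10 chr5:92321347-92328079, minus strand), next to Cxcl10 (chr5:92346638-92348889, minus strand). In the mature migratory dendritic cell-like subcluster 12 its level was 537, 681 and 249 CPM in mice 1, 2 and 3. In the macrophage-like subcluster 2 it was 355, 623 and 142 CPM, and in the type 2 dendritic cell-like subcluster 4 it was 493, 312 and 275 CPM. The ranges of these 3 subclusters overlapped. Subcluster 11, at 208, 146 and 41.2 CPM, lay below every mouse of subclusters 4 and 12 but overlapped subcluster 2. The type 1 dendritic cell-like subcluster 6 reached 112, 60.4 and 85.1 CPM, overlapping subcluster 11. Mouse 3 had the lowest Cxcl9 of the 3 mice in subclusters 2, 4, 11 and 12. The 234 CPM of mouse 2 in subcluster 13 rested on few cells: 71.0% of that subcluster's Cxcl9 UMIs came from a single cell, and mice 1 and 3 stood at 11.1 and 3.20 CPM. All 8 lymphoid subclusters and the plasmacytoid ones had means of 18.5 CPM or less. Of all Cxcl9 UMIs of a mouse, 39.9% came on average from subcluster 2 (range 25.5 to 64.5%) and 35.8% from subcluster 4 (17.9 to 47.5%).

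Cxcl10 shared subclusters 2 and 4 with Cxcl9 but stood elsewhere too. In subcluster 15 it was 1378 CPM in mouse 2 and 587 CPM in mouse 3. That subcluster holds 44 cells and is led by Ifit3b, Ifit3 and Ifit1, genes switched on by type I interferon, and 1 cell carries 29.6% of its Cxcl10 UMIs. The macrophage-like subcluster 2 had 287, 758 and 403 CPM, a range overlapping that of subcluster 15. Subcluster 4 followed at 188, 251 and 256 CPM, below every mouse of subcluster 2. Subcluster 12 was uneven, at 34.4, 255 and 72.1 CPM, and 50.7% of its Cxcl10 UMIs came from 1 cell. In the type 1 dendritic cell-like subcluster 6, where Cxcl9 was found in all mice, Cxcl10 stood at only 8.03, 13.8 and 5.66 CPM, overlapping lymphoid subclusters such as 5 and 8. Subcluster 2 gave 58.3% of a mouse's Cxcl10 UMIs on average and subcluster 4 gave 26.1%, while subcluster 15 gave 3.56%. A neighbouring gene, Art3, overlaps Cxcl10 on the other strand. It had at most 2.04 CPM on average in any subcluster.

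The 250 bases before the start of Cxcl9 and Cxcl10 are shown because Cxcl10 was higher in Cxcl9-bearing cells in the test reported further on. They are RefSeq sequence on GRCm38.p6, minus strand, printed 5′ to 3′ and ending at the base before the start: chr5:92328080-92328329 for Cxcl9 and chr5:92348890-92349139 for Cxcl10. Capitals mark matches to a searched motif.
Cxcl9: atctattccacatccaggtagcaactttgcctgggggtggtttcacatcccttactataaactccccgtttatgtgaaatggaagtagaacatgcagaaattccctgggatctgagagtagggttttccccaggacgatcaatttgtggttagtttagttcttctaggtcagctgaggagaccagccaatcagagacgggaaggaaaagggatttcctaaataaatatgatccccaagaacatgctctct
Cxcl10: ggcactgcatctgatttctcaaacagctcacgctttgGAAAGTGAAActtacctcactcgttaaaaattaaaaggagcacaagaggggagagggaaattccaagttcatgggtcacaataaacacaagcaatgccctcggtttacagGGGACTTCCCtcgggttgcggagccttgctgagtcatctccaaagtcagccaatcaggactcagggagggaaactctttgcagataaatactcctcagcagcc
In all, 4 motifs were searched on both strands from 250 bases before to 50 after the start. They were the interferon-stimulated response element (TTTC, any 2 bases, TTTC), the gamma-activated site (TTC, any 3 bases, GAA), a kappa-B site (GGGA, any base, TT, any base, CC) and a T-box site (AGGTGT, any base, A). Their letters were chosen after the sequences had been seen. The Cxcl10 window holds GAAAGTGAAA, the first motif on the other strand, at position -213 and the kappa-B letters GGGACTTCCC at position -103, counted from the start. Among 32851 RefSeq promoter windows of that length, 3.44% hold the first motif, 8.30% the second, 1.20% the third and 3.03% the fourth. None of these letters was found in the windows of Cxcl9, Cxcr3 and Cxcr6, which says nothing about other sites, and Cxcl16 was not among the sequences matched (4 of 5 members were).

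Cxcl16 (chr11:70453983-70459984, minus strand) stood apart in a single subcluster. In subcluster 12, cells with the markers of dendritic cells that have matured and migrate (Ccr7, Fscn1, Ccl22), it was 612, 493 and 606 CPM in mice 1, 2 and 3. The next was subcluster 2, at 91.3, 132 and 80.4 CPM, so every mouse of subcluster 12 lay above every mouse of subcluster 2. Subcluster 4 had 87.7, 66.6 and 94.8 CPM and subcluster 6 had 74.2, 96.9 and 70.5 CPM, and both overlapped subcluster 2. The Cxcl16 ranges of the type 1 and type 2 dendritic cell-like subclusters thus overlapped, which those of Cxcl10 did not. Subcluster 11 reached 60.2, 39.8 and 47.1 CPM, and every other subcluster had a mean of 29.0 CPM or less. The 29.0 CPM of subcluster 14 came from 55.1 CPM in mouse 3, and 77.3% of that subcluster's Cxcl16 UMIs were in 1 cell. Subcluster 12 held 2.09% of a mouse's cells and gave 27.1% of its Cxcl16 UMIs (range over mice 18.3 to 37.1%), against 31.1% from subcluster 2. The start of Zmynd15 overlaps Cxcl16 on the other strand, and Zmynd15 was itself highest in subcluster 12, at 141 CPM. No source used here states how strand was used in counting, so a part of the Cxcl16 count in subcluster 12 cannot be told apart from Zmynd15 reads. Zmynd15 stood at 3.31 CPM or less in all other subclusters, Cxcl16-bearing ones included.

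The protease genes did not follow Cxcl16. Adam10 lay between 23.8 CPM (subcluster 6) and 60.4 CPM (subcluster 14) and Adam17 between 17.0 CPM (subcluster 10) and 69.8 CPM (subcluster 2), so neither was confined to the cells with the ligand. Dpp4, which encodes the peptidase that trims CXCR3 ligands, was highest on average in subclusters 6 (119 CPM), 12 (115 CPM) and 4 (97.6 CPM). Cxcl11, the gene of the remaining CXCR3 ligand, has no row in the matrix.

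The ligands also differed in how their UMIs were spread over cells. The 10% of cells with the most UMIs held 86.6% of the Cxcl9 UMIs in subcluster 2, 77.3% in subcluster 4 and 89.3% in subcluster 12. For Cxcl10 the same share was 93.6% in subcluster 2 and 92.8% in subcluster 4. Cxcl16 in subcluster 12 was spread more evenly, with 27.1% of its UMIs in the top 10% of cells and a UMI in 88.0% of the cells, and in subcluster 2 the share was 49.8%. The most Cxcl9 UMIs in a cell was 274 and the most Cxcl10 UMIs 360, both in subcluster 2, where the median bearing cell had 7 Cxcl9 and 3 Cxcl10 UMIs.

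**Figure D2:**
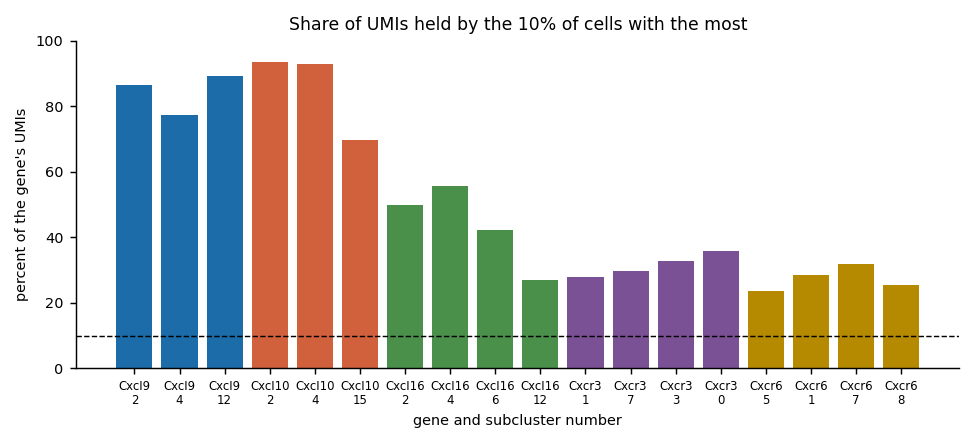
Percent of a gene's UMIs held by the 10% of cells with the most (bars), for each gene in the subclusters where it was high, with a dashed line at the 10% that an even spread would give. Cxcl9 and Cxcl10 bars run from 69.7 to 93.6%, while Cxcl16 in subcluster 12 stands at 27.1% and Cxcr6 in subcluster 5 at 23.6%.

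Cells with Cxcl9 and cells with Cxcl10 overlapped in part. After each cell was thinned to 7543 UMIs, so that all cells had equal depth (596 shallower cells were left out), 23.3% of 696 cells of subcluster 2 had a Cxcl9 UMI and 24.1% had a Cxcl10 UMI. Both were found in 9.77% of the cells, against 5.62% for the product of those shares. In subcluster 4 both were found in 10.1% of 516 cells against a product of 6.23%, and in subcluster 12 in 9.76% of 123 cells against 3.37%. Cxcl9 and Cxcl16 were found together in 19.5% of the cells of subcluster 12 against a product of 20.2%. As a background level, 3.58% of 923 thinned cells of the plasmacytoid subcluster 0 had a Cxcl9 UMI (exact 95% interval 2.47 to 4.99%) and 3.58% a Cxcl10 UMI, so shares of that size in lymphoid subclusters, such as 3.55% for Cxcl9 in subcluster 3, are not read as expression.

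Cxcr3 (chrX:101731535-101734269, minus strand) was the most widely found of the 5 genes. In the CD8 T cell-like subclusters 1 and 7 its levels were 241, 327 and 316 CPM and 231, 316 and 316 CPM. Subcluster 1 is led by Actn2, Ccl5 and Gzmk, and subcluster 7 by genes that include S1pr1, the receptor by which lymphocytes leave tissue. The interferon-gene subcluster 15 had 241 and 196 CPM, overlapping both. Subcluster 3 followed at 168, 179 and 162 CPM, above all mice of subcluster 10, a Tcf7- and Dapl1-led T cell-like group at 111, 125 and 125 CPM. The plasmacytoid subclusters 9 (124, 105 and 124 CPM) and 0 (112, 105 and 121 CPM) and the type 1 dendritic cell-like subcluster 6 (121, 78.4 and 111 CPM) overlapped subcluster 10. Subcluster 5, led by Nrn1 and Igfbp7 and high in Pdcd1 and Havcr2, the checkpoint receptors PD-1 and TIM-3, had only 41.5, 22.3 and 43.9 CPM, the lowest of any lymphoid subcluster. Every mouse of subcluster 5 still lay above the macrophage-like, type 2 and migratory dendritic cell-like subclusters, whose means were 12.6 CPM or less.

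Cxcr3 UMIs were found in many type 1 dendritic cell-like cells, and the part of free RNA in them was not tested. At equal depth, 50.1% of 367 cells of subcluster 6 had a Cxcr3 UMI (exact 95% interval 44.9 to 55.4%), against 4.46% of 516 cells of subcluster 4 and 4.60% of 696 cells of subcluster 2. Only 3.00% of the same subcluster 6 cells had a Cxcr6 UMI. In the plasmacytoid subclusters 0 and 9 the Cxcr3 share was 48.5% and 50.8%. Lymphoid cells gave 62.4% of a mouse's Cxcr3 UMIs on average, the Siglech cluster 19.9% and the antigen-presenting clusters 17.7%.

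Cxcr6 (chr9:123806475-123811760, plus strand) was found almost only in lymphoid cells, which gave 96.6% of its UMIs (range over mice 96.3 to 96.8%). Its level in subcluster 5 was 697, 549 and 416 CPM, and in subcluster 1 it was 600, 462 and 590 CPM. Subclusters 14 (705 and 253 CPM), 7 (459, 357 and 459 CPM), 8 (403, 358 and 268 CPM) and 15 (145 and 445 CPM) overlapped one another. A step without overlap separated them from subcluster 3, at 108, 127 and 83.8 CPM, and a further step led to the Tcf7-high subcluster 10, at 64.8, 59.5 and 47.1 CPM. Every other subcluster had a mean of 15.1 CPM or less. In subcluster 0 the share of thinned cells with a Cxcr6 UMI was 2.28% (exact 95% interval 1.41 to 3.46%), a background level. The 4.45% of subcluster 2 lay above that interval, and the part of free RNA in it was not tested. Fyco1, on the other strand, overlaps Cxcr6 and had 9.72 to 41.6 CPM on average, without the step between lymphoid and other cells.

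The receptors were placed differently within the T cell-like cells. At equal depth, 75.9% of 552 cells of subcluster 1 and 67.2% of 241 cells of subcluster 7 had UMIs of both receptors. In subcluster 5, 72.0% of 443 cells had Cxcr6 without Cxcr3 and 18.7% had both. The dividing subclusters 8 and 14 lay between, with 32.4% and 27.8% of cells bearing both and 48.9% and 64.6% bearing Cxcr6 alone. Subclusters 3 and 10 had the opposite bias, with Cxcr3 alone in 40.8% and 37.6% of cells and both in 19.1% and 17.6%. Within each of these subclusters the share with both lay near the product of the single shares, for instance 75.9% against 75.0% in subcluster 1 and 18.7% against 19.9% in subcluster 5.

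**Figure D3:**
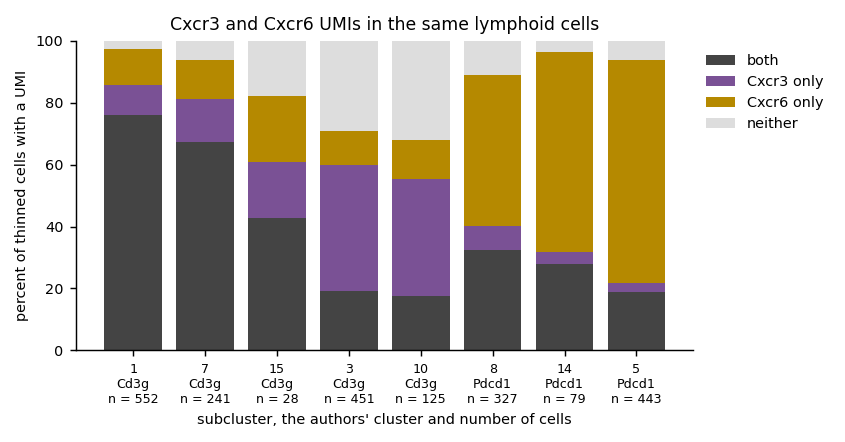
Percent of lymphoid cells, thinned to equal depth, with UMIs of both receptors, Cxcr3 only, Cxcr6 only or neither, stacked for 8 subclusters with the authors' cluster and the number of cells below each. Cells with both fill 75.9% of subcluster 1 and 18.7% of subcluster 5, where Cxcr6 alone fills 72.0%.

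Genes whose pattern over the 16 subclusters was most like each member were ranked by Pearson's r of log2 of CPM plus 1 among 6775 genes with at least 30 CPM somewhere. These values describe means that share cells, library and clustering. Cxcr6 was most like Sh2d2a (0.98), Tox (0.98), Nkg7 (0.98), Ifng (0.98) and Bspry (0.98), with Tox an exhaustion-linked transcription factor and Ifng the gene of interferon gamma. Cxcr3 had weaker matches, Sh2d3c (0.88), Arl4a (0.87), Mier1 (0.86), Tnrc6a (0.85) and Sipa1l1 (0.85). Cxcl9 was most like Bcl2a1a (0.97), Pira2 (0.95), Wfdc17 (0.95), Guca1a (0.93) and Tnfrsf11a (0.93). Cxcl10 was most like Oas1a (0.88), Tmem65 (0.88), Lilr4b (0.88), Gbp2 (0.88) and Ifit2 (0.86), of which Oas1a, Gbp2 and Ifit2 are interferon-induced. Cxcl16 was most like Nostrin (0.94), Tmem131 (0.90), Il1b (0.89), Bcl2a1a (0.88) and Ggta1 (0.87). Between members, r was 0.82 for Cxcl9 with Cxcl16, 0.51 for Cxcr3 with Cxcr6 and 0.41 for Cxcl9 with Cxcl10. Ligand and receptor pairs were negative: -0.78 for Cxcl9 with Cxcr3, -0.32 for Cxcl10 with Cxcr3 and -0.44 for Cxcl16 with Cxcr6.

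Ifng, the cytokine gene to which the CXCR3 ligands respond, was highest in the Cxcr6-bearing subcluster 5 (481 CPM on average), and stood at 265 CPM in subcluster 14, 248 CPM in subcluster 8 and 160 CPM in subcluster 1. It was at 11.2 CPM or less in every antigen-presenting subcluster. Ifngr2, a subunit of the receptor for interferon gamma, had the reverse placement, with 144 CPM in subcluster 2, 89.7 CPM in subcluster 4, 92.9 CPM in subcluster 12 and 10.6 CPM or less in the lymphoid subclusters.

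Whether the other ligands go with Cxcl9 inside a cell type was tested in antigen-presenting cells with against without a Cxcl9 UMI. Cxcl10 was higher in Cxcl9-bearing cells in every mouse: 282 against 86.3 CPM in mouse 1, 763 against 226 CPM in mouse 2 and 417 against 74.6 CPM in mouse 3. The classes did not overlap within any mouse, and the difference was 1.94 ± 0.11 on the log2 scale (SE, 3 mice, adjusted p = 1.0e-06). Cxcl16 was higher by a much smaller amount, at 116 against 92.6 CPM, 129 against 105 CPM and 139 against 117 CPM (log2 0.31 ± 0.06, adjusted p = 0.021). Cxcr3 differed by -0.23 ± 0.14 (adjusted p = 0.63) and Cxcr6 by 0.28 ± 0.17 (adjusted p = 0.62), neither past the threshold, although Cxcr6 was higher in 3 of 3 mice. In this comparison 2 of the 4 other members passed, both higher, while 1.85% of the 9935 genes tested were called higher and 1.03% lower, 2.88% in all. The Cxcl16 call rests on a narrow margin: the adjusted p was 0.47 with DESeq2, 0.15 without cells carrying T cell transcripts, 0.093 without mouse 1 and 0.058 without mouse 3.

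These values come from edgeR's quasi-likelihood test on UMI counts summed per mouse and class, with the mouse as a block and Benjamini-Hochberg adjustment over all genes tested at a threshold of 0.05. Cells with and without the transcript were brought to equal numbers within each mouse, subcluster and quintile of total UMIs, which left 602 cells per class. A cell without a UMI may still express the gene, so the classes are enriched rather than pure. Before matching, 43.5% of 809 antigen-presenting cells of mouse 1 had a Cxcl9 UMI (exact 95% interval 40.1 to 47.0%), 36.2% of 472 in mouse 2 (31.9 to 40.7%) and 21.0% of 575 in mouse 3 (17.8 to 24.6%). Nothing in the labels says that the mice differ in treatment. With the mouse as a block, p-values weigh the difference between classes within mice against a variation estimated with information shared across genes. They are therefore no measure of the spread over these 3 animals alone. Each SE is the size of the log2 difference divided by the square root of the test's F value. The p-values hold for the matched cells drawn, and differences in level between the mice do not enter them.

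**Figure D4:**
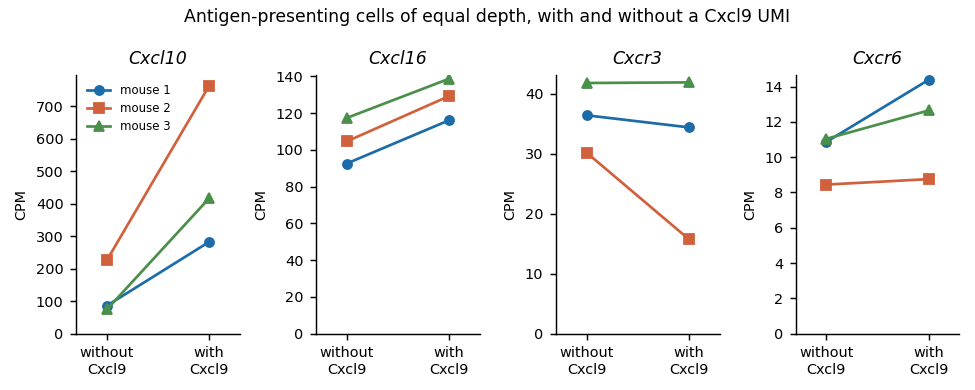
CPM of 4 members in antigen-presenting cells without and with a Cxcl9 UMI, matched in number and depth, with 1 line per mouse and axes from 0. All 3 lines rise steeply for Cxcl10 and slightly for Cxcl16. Cxcr6 rises by at most a few CPM (from 10.9 to 14.4 CPM in mouse 1), and the Cxcr3 lines, at 41.9 CPM or less, do not share a slope.

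Interferon-response genes went with Cxcl9. Of the 20 tested genes of the interferon gamma list, 18 were higher and none lower (median log2 0.73, against 0.00 over all genes tested). Gbp2, a guanylate-binding GTPase, stood at 385 against 95.2 CPM (log2 2.01 ± 0.11, adjusted p = 1.0e-06). Iigp1, an immunity-related GTPase, stood at 129.5 against 27.1 CPM (2.25 ± 0.14), Socs1, a feedback inhibitor of the pathway, at 86.0 against 36.5 CPM (1.24 ± 0.08) and Gbp5 at 73.5 against 23.9 CPM (1.56 ± 0.12). Irf1, a transcription factor induced by interferon gamma, was higher by 0.80 ± 0.06. Of the 16 type I interferon genes, 8 were higher and none lower (median 0.33), led by Ifit3 (114 against 72.1 CPM), Ifit2, Isg15 (678 against 485 CPM) and Ifit1. When subclusters 2, 4 and 6 were each read alone, only subcluster 4 had calls from this type I list. Genes of class II antigen presentation moved little, with 2 of 7 called higher, Ciita, which is also in the interferon gamma list, and H2-Eb1 (median 0.07). The serpin gene Serpina3g had the largest fold of all genes that met the naming rule, at 147 against 29.0 CPM (2.34 ± 0.09).

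Other chemokine ligands did not follow Cxcl9. Of 14 tested, 6 were lower and 1 higher (median log2 -0.41), with lower calls in subcluster 2 but not 4 or 6, each read alone. Cxcl2, a neutrophil attractant, stood at 205 against 408 CPM (log2 -0.99 ± 0.11, adjusted p = 0.00017), Ccl9 at 167 against 234 CPM (-0.45 ± 0.06), Ccl6 at 699 against 816 CPM and Ccl5 at 297 against 585 CPM. Cxcl3 and Ccl2 were also lower, and Ccl22, made by migratory dendritic cells, was higher at 77.4 against 55.5 CPM (adjusted p = 0.049). The genes of largest fold on the lower side included Clec4d (12.2 against 40.4 CPM), Arg1, the arginase of alternatively activated macrophages (32.1 against 104 CPM, log2 -1.64 ± 0.28), Vegfa (16.4 against 48.4 CPM), Thbs1 (45.4 against 117 CPM), Slpi, Fn1 and Ly6d. None of the 9 other chemokine receptors tested passed. T cell markers gave no call among 9, with a summed level of 205 to 272 CPM in cells with Cxcl9 and 253 to 317 CPM in cells without. Of 8 markers of type 2 conventional dendritic cells, 2 were lower, with sums of 1164 to 1315 CPM against 1434 to 1671 CPM. The neutrophil marker sum was 12.6 to 28.8 CPM with Cxcl9 and 19.3 to 225 CPM without. The part of these markers in the comparison was not tested.

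The pattern was then read inside single subclusters, a choice made after the data were seen. In the macrophage-like subcluster 2, Cxcl10 was higher by 1.93 ± 0.26 (adjusted p = 0.00039) and Cxcl16 by 0.86 ± 0.13 (adjusted p = 0.0018), with Cxcl16 at 121 against 78.0, 183 against 98.5 and 105 against 41.0 CPM in mice 1 to 3. In the type 2 dendritic cell-like subcluster 4, Cxcl10 was higher by 2.16 ± 0.24 (adjusted p = 8.5e-05) and Cxcl16 by 0.61 ± 0.11 (adjusted p = 0.0069). In the type 1 dendritic cell-like subcluster 6, Cxcl16 stood at 71.1 against 77.2, 51.05 against 158 and 83.9 against 84.3 CPM, a difference of -0.47 ± 0.23 (adjusted p = 0.83), and Cxcl10 was below the filter on low counts, at 15.6 CPM or less in every class. Gbp2 passed in all 3 subclusters, by 1.39 ± 0.12 in subcluster 2, 2.57 ± 0.22 in subcluster 4 and 1.52 ± 0.28 in subcluster 6. The interferon gamma list had 9, 16 and 3 genes called higher in subclusters 2, 4 and 6, of 20, 20 and 17 tested. The type I interferon list had 0, 9 and 0 called higher, of 16, 16 and 10 tested, and none lower. Among other chemokine ligands 5, 0 and 0 were called lower and 0, 1 and 0 higher, of 11, 10 and 7 tested. Over all genes, 47 of 8375, 133 of 7190 and 14 of 6317 were called higher in these subclusters, and 64, 30 and 4 lower. Whether the subclusters differ from each other in these effects was not tested. Cxcr6 in subcluster 6 was 15.03 against 1.75, 28.2 against 0 and 18.2 against 6.20 CPM (2.73 ± 0.53, adjusted p = 0.056), and the summed level of 9 T cell markers moved with it, at 219 against 61.4, 562 against 67.8 and 305 against 183 CPM. The part of T cell transcripts in that Cxcr6 value was not tested.

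How the receptors stand with the checkpoint gene Pdcd1 was tested in CD8 cells (Cd8a or Cd8b1 and a Cd3 transcript, no Cd4, in the Cd3g and Pdcd1 clusters) with against without a Pdcd1 UMI, 646 per class at equal depth within mice. Cxcr6 was higher with Pdcd1 in all 3 mice: 851 against 162 CPM, 540 against 233 CPM and 520 against 367 CPM (log2 1.26 ± 0.26, adjusted p = 0.019). Cxcr3 was 90.9 against 159 CPM in mouse 1, 200 against 190 CPM in mouse 2 and 253 against 242 CPM in mouse 3, without a shared direction (-0.27 ± 0.16, adjusted p = 0.41). Cxcl10 was 13.1 against 133, 12.3 against 56.8 and 21.3 against 13.4 CPM (-1.51 ± 0.56, adjusted p = 0.17), and Cxcl9 and Cxcl16 were below the filter on low counts in all 4 comparisons of lymphoid cells. Of the 3 members tested 1 was called, in a comparison where 2.90% of 8552 genes were called higher and 3.36% lower, 6.26% in all. The Cxcr6 difference was 0.48 ± 0.12 (adjusted p = 0.093) when cells were matched on subcluster too, and its adjusted p was 0.25 with DESeq2 and 0.072 without cells carrying myeloid or B cell transcripts. Without mouse 1 it was 0.75, still past the threshold, and the count of all calls was 40 against 535 with subcluster matching. With at least 2 Pdcd1 UMIs in the bearing class, Cxcr3 was lower by -0.55 (adjusted p = 0.0081).

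The Pdcd1 classes sat in different subclusters, with 118 cells with and 8 without Pdcd1 in subcluster 5, 4 and 113 in subcluster 3 and 5 and 89 in subcluster 10, so the differences that follow include those between subclusters. Of the lists, 9 of 13 checkpoint and exhaustion genes were higher and 1, Eomes, lower (median log2 1.16). Havcr2 stood at 56.6 against 3.34 CPM (3.79 ± 0.34), Lag3 at 253 against 51.4 CPM (2.09 ± 0.20) and Tnfrsf9, the costimulatory receptor 4-1BB, at 236 against 56.1 CPM (2.14 ± 0.17). All 11 called genes of the 13 stem-like and memory genes were lower, among them Satb1 and Tcf7 (46.7 against 202 CPM, -2.18 ± 0.31). Ifng was higher by 1.16 ± 0.24 (273 against 112 CPM, adjusted p = 0.019). Cd69 fell by 0.62 ± 0.11 and S1pr1 by 1.70 ± 0.34, while Itgae, the integrin of epithelial resident cells, was at 8.38 against 7.85 CPM. Natural killer markers moved as well: 6 of 7 tested were lower, with a summed level of 132 to 298 CPM with Pdcd1 and 387 to 942 CPM without, and their part in the comparison was not tested.

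Cells with against without Cxcr6 itself were compared within subclusters, 264 per class. Cxcr3 did not separate them, at 108 against 161, 166 against 135 and 219 against 162 CPM in mice 1 to 3 (log2 0.03 ± 0.15, adjusted p = 0.97). Cxcl10, the other member tested, differed by 0.91 ± 0.47 (adjusted p = 0.50), so neither was called. Cytotoxic genes were higher with Cxcr6 and stem-like genes lower. Of 13 cytotoxicity genes, 7 were higher and none lower (median 0.57): Prf1, which encodes perforin, at 221 against 41.0 CPM (2.31 ± 0.15, adjusted p = 2.7e-07), Gzmc at 118 against 6.76 CPM (3.87 ± 0.30), Gzmb at 583 against 156 CPM (1.91 ± 0.18) and the inhibitory receptor gene Klrc1 at 189 against 74.6 CPM (1.26 ± 0.13). Of 13 stem-like and memory genes, 9 were lower and none higher (median -0.76), including Ccr7, the homing receptor for lymph nodes (30.2 against 80.0 CPM, -1.46 ± 0.20), Klf2 (431 against 702 CPM), Satb1 and Slamf6, and Tcf7 (151 against 244 CPM, -0.76 ± 0.13, adjusted p = 0.0057). These shares compare with 1.04% of 7413 genes called higher and 0.567% lower, 1.61% in all.

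Among checkpoint genes 5 of 12 were higher with Cxcr6, led by Tnfrsf9 (179 against 102 CPM), Pdcd1 (132 against 74.0 CPM, 0.79 ± 0.13, adjusted p = 0.0041), Entpd1 and Tox. The tissue residency list had 3 of 10 higher, Rgs1 (373 against 181 CPM), Itga1 (40.9 against 16.5 CPM) and Prdm1, and none lower. Other chemokine receptors moved too: Ccr2 (110 against 44.2 CPM) and the decoy-like receptor gene Ccrl2 were higher, and Ccr7 was lower. Ligand genes Ccl3 (484 against 93.6 CPM, 2.06 ± 0.37) and Ccl4 (912 against 243 CPM, 1.67 ± 0.28) were higher, as was Ccl5, and Xcl1 was lower (388 against 971 CPM), though in only 2 of 3 mice. Ifng stood at 186 against 120 CPM, higher in 3 of 3 mice, with an adjusted p of 0.11. The genes of largest fold on the lower side were Dapl1 (49.4 against 239 CPM, -2.26 ± 0.30), Crtam, Cd83 and Ccr7. Gamma-delta T cell markers were higher for 3 of 5 tested, with a summed level of 77.5 to 309 CPM with Cxcr6 and 35.1 to 113 CPM without, and Trdc was among them (79.5 against 21.6 CPM). The summed level of 5 neutrophil markers, none of which passed the filter on low counts, reached 688 CPM in 1 mouse with Cxcr6 and 3.72 CPM at most without. The part of these cells in the result was not tested.

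The count of calls in the Cxcr6 comparison was 47 without mouse 1, against 119. Inside the Cd3g cluster alone, Gzmb was still higher (1.45 ± 0.14, adjusted p = 2.5e-08) and Tcf7 lower (-0.57 ± 0.13, adjusted p = 0.019), while Prf1 differed by 0.52 ± 0.20 (adjusted p = 0.32). Inside the Pdcd1 cluster alone, with only 15, 11 and 14 cells per class in mice 1 to 3, Prf1 was higher by 4.29 ± 0.33 (adjusted p = 3.2e-06), at 363 against 40.4, 1414 against 26.8 and 808 against 38.02 CPM, and Tcf7 was lower by -3.74 ± 0.48 (adjusted p = 0.00035), at 5.34 against 75.7, 0 against 218 and 31.2 against 176 CPM. Havcr2 was also higher there (4.43 ± 0.47). The checkpoint list had 4 of 11 genes called higher and 0 lower in the Pdcd1 cluster alone. In the Cd3g cluster alone, with 55, 61 and 108 cells per class in mice 1 to 3, it had 0 of 10 called in either direction. Other chemokine ligands had 3 of 4 called higher and 0 lower in the Pdcd1 cluster alone, and 0 higher and 1 lower of 5 in the Cd3g cluster alone. Over all genes, 59 of 4427 were called higher and 39 lower in the Pdcd1 cluster, and 35 of 6097 and 24 in the Cd3g cluster. Whether the clusters differ in these effects was not tested.

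The same split by Cxcr3, 496 cells per class, gave the opposite sign for Prf1 and Gzmc. Cxcr6 was 569 against 542, 376 against 440 and 362 against 299 CPM, without a shared direction (log2 0.04 ± 0.09, adjusted p = 0.97), and Cxcl10 differed by -0.42 ± 0.19 (adjusted p = 0.52). Among the genes lower with Cxcr3 were Gzme at 2.03 against 138 CPM (-5.65 ± 0.28, adjusted p = 1.3e-08), Gzmc at 23.9 against 797 CPM (-3.60 ± 0.55), the protease inhibitor gene Serpinb9b at 1.25 against 65.4 CPM and Prf1 at 187 against 558 CPM (-1.48 ± 0.12, adjusted p = 8.7e-06). Without Cxcr3, the standard deviation over mice was 187 CPM for Gzme, 1159 CPM for Gzmc and 80.3 CPM for Serpinb9b, above each mean. Tnfrsf9 stood at 171 against 444 CPM (-1.52 ± 0.21) and Havcr2 at 33.3 against 77.9 CPM (-1.09 ± 0.17). Of 14 checkpoint genes, 4 were lower and none higher. On the higher side were Itgb7, an integrin subunit of gut-homing and memory T cells (96.1 against 56.5 CPM, 0.84 ± 0.12), Gzmk (103 against 68.7 CPM, 0.66 ± 0.12), Cd7 and Ifi213. The cytotoxicity list had both directions, with Gzmk and Gzma (in 2 of 3 mice) higher and Prf1, Gzmc, Cst7 and Klrc1 lower of 14 tested. None of 13 stem-like and memory genes passed (median 0.29, with 11 above 0), and Tcf7 was 89.2 against 71.6 CPM (0.45 ± 0.16, adjusted p = 0.31). The background here was 0.242% of 8669 genes called higher and 1.04% lower, 1.28% in all. Natural killer markers moved too, with 2 of 6 higher and a summed level of 191 to 515 CPM with Cxcr3 and 150 to 303 CPM without. Markers of conventional dendritic cells had 1 lower of 3 tested for type 2 (sums of 32.9 to 38.8 CPM with and 51.7 to 104 CPM without) and 1 lower of 2 for type 1 (87.3 to 183 CPM and 144 to 357 CPM). Their part was not tested.

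The Cxcr3 comparison was also made inside each cluster alone. In the Pdcd1 cluster alone, Prf1 was 248 against 555, 309 against 680 and 89.3 against 847 CPM (-1.65 ± 0.26, adjusted p = 0.010) and Tcf7 was higher at 18.6 against 1.304, 51.4 against 8.04 and 70.5 against 24.2 CPM (2.63 ± 0.34, adjusted p = 0.0021), whereas in the Cd3g cluster alone Prf1 (-0.10 ± 0.21) and Tcf7 (0.00 ± 0.17) had adjusted p of 1.00 each. The difference between the clusters was not tested. The count of calls also moved with the draw of matched cells, from 111 to 71 with another draw, of which 50 were shared. Without cells carrying myeloid or B cell transcripts it was 23. The Cxcr6 and Cxcr3 comparisons draw on the same CD8 gate, but their matched cells lie in different subclusters. Subclusters 5, 8 and 14 of the Pdcd1 cluster gave 18, 19 and 3 of 264 cells per class in the Cxcr6 comparison. They gave 146, 105 and 25 of 496 in the Cxcr3 comparison. The values of these comparisons are therefore set side by side only, and the part of this difference in the opposite signs was not tested.

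**Figure D5:**
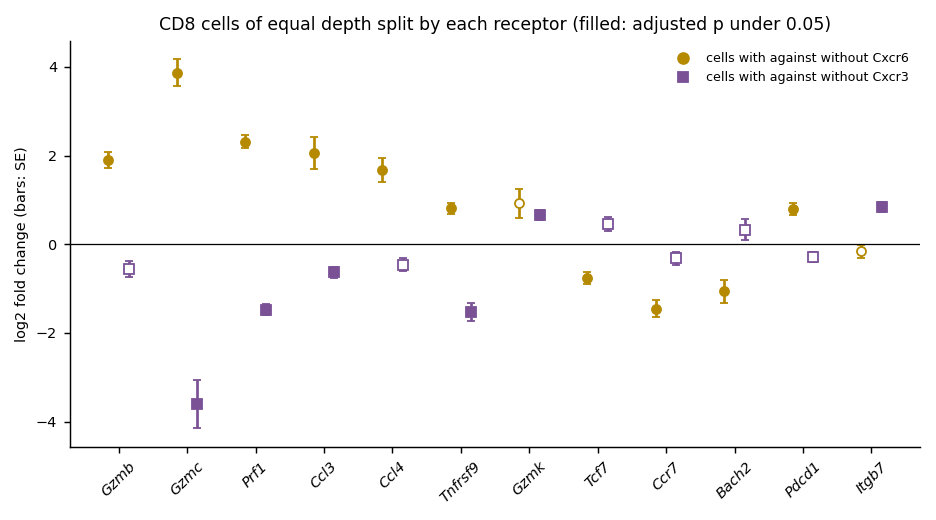
Log2 fold change with its SE in CD8 cells with against without a Cxcr6 UMI (circles) and with against without a Cxcr3 UMI (squares) for 12 genes, filled where the adjusted p was under 0.05. Prf1 stands at 2.31 in the Cxcr6 split and at -1.48 in the Cxcr3 split, and Gzmc at 3.87 and -3.60. The splits differ in the subclusters of their matched cells.

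In subcluster 3, 577 of 632 cells had a CD3 UMI, and the 55 without were compared with 55 of those with CD3 at equal depth. Natural killer markers differed between them, with 4 of 8 lower and 1 higher in CD3-bearing cells (sums of 1592 to 3222 CPM with and 4907 to 6219 CPM without), and their part was not tested. Cxcr3 was higher in the CD3-bearing cells of every mouse, at 190 against 125, 266 against 70.5 and 213 against 128 CPM, but did not pass the threshold (log2 1.05 ± 0.28, adjusted p = 0.072). Cxcr6 had no shared direction, at 51.0 against 128, 153 against 64.1 and 171 against 35.9 CPM (0.56 ± 0.51, adjusted p = 0.78), and the difference was 1.80 (adjusted p = 0.0091) without mouse 1 and -0.12 without mouse 3. Without mouse 3, Cxcr3 passed (1.18, adjusted p = 0.031). It was 0.53 (adjusted p = 0.28) with another draw of cells and 0.29 (adjusted p = 0.87) without cells of conflicting lineage. That last fit held mice 1 and 3 only, since mouse 2 had 4 cells per class left. With mouse 2 left out and all other cells kept, Cxcr3 was 0.76 (adjusted p = 0.40). Neither receptor was called and Cxcl10 was below the filter, in a comparison where 1.92% of 2763 genes were called higher and 1.09% lower, 3.00% in all. The CD3-free cells had more Ccl1 (412 against 6.07 CPM), Csf2 (144 against 11.2 CPM), Xcl1 (4011 against 955 CPM) and Gzmb (1621 against 626 CPM), and the CD3-bearing ones more Trac, Trdc, Tcf7 (197 against 78.9 CPM, 1.48 ± 0.30) and Cd69 (398 against 205 CPM, 1.03 ± 0.23). With 11 to 23 cells per class and mouse this comparison has the least depth of those made, another draw of cells gave 184 calls against 83, and the count was 33 without mouse 2 and 134 without mouse 3.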

How the data were processed

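The authors deposited raw UMI counts per gene and cell (15416 genes, 5976 cells, 103155608 UMIs) and a cell table with cluster and hashtag labels. Per the submitters' processing notes, Cell Ranger 3.1.0, Seurat 3.1.5 and build mm10 were used, and filters and strand use are not given in the sources used here. The percent of mitochondrial UMIs in the authors' cell table is at most 5.00 and was not tested. Cells held 2953 to 49843 UMIs (median 14439). The cell table's species column reads Human, while the gene names are those of mouse. The antibody-tag library was not analysed here beyond the authors' hashtag calls.

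Each class of cells in each mouse became 1 column of summed counts, tested with edgeR 4.0.16 (quasi-likelihood, TMM, its default filter on low counts, mouse as block) in R 4.3.3, with DESeq2 1.42.0 as an alternative. The pairing comes from the animals: both classes of a comparison are cells of the same mouse. Exact binomial intervals (95%) cover counting error only. Levels, thinning and matching used Python 3.11.15, numpy 2.4.6, scipy 1.17.1 and pandas 2.3.3. A cell type name needed at least 3 markers that stood 2 times above the other cells and were found in 25% of cells. No doublet caller was run. The alternative without cells of conflicting lineage leaves out lymphoid cells whose Cd79a, Lyz2 and C1qa counts sum to 2 or more and antigen-presenting cells whose Cd3d, Cd3e, Cd3g and Trbc2 counts do.

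The members and the 13 gene lists were chosen with earlier results of these data known. The text names the members and up to 4 leading called genes of a list. It also names some, but not all, of the 8 called genes of largest fold in each direction. The naming rule for those 8 asks for the same direction in all mice and 30 CPM or more in the higher class. Further called list members are named without a rule of size. In simulated counts with known changes, the test recovered 79.2% of 2-fold changes in the Cxcl9 comparison. It recovered 53.1% in the Cxcr6, 63.0% in the Cxcr3, 63.5% in the Pdcd1 and 55.6% in the CD3 comparison. False calls made up 6.95%, 4.46%, 1.95%, 6.51% and 3.36% of the calls, in the same order. Every simulated gene was given the same count dispersion, a setting that the data need not share. Some genes are not reported here. Gene positions are those of GENCODE M21.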

Additional observations from a re-analysis of the deposited data

Results flagged for a closer look

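The 8 cells without a mouse hashtag were used in no comparison. They held 11 Cxcr3 UMIs and 19 Cxcr6 UMIs of 93452 in all, above the 3 UMIs that a count of 0 allows, against 1 UMI each of Cxcl9 and Cxcl16 and none of Cxcl10.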

How the results depend on the processing

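The directions of Cxcl10 and Cxcr6 in the Cxcl9 and Pdcd1 comparisons were kept in all alternatives that gave a value, while the counts of called genes moved widely. Counts of calls in the Pdcd1, Cxcr6, Cxcr3, Cxcl9 and CD3 comparisons (535, 119, 111, 286 and 83) were 1057, 258, 256, 442 and 190 with no filter on low counts and 224, 28, 31, 111 and 31 with DESeq2. Without cells of conflicting lineage they were 346, 58, 23, 144 and 42, the last from mice 1 and 3 only. Matching without subcluster gave 705, 311 and 177 in the Cxcr6, Cxcr3 and Cxcl9 comparisons, and matching on subcluster gave 40 in the Pdcd1 comparison. Requiring 2 UMIs gave 1098 in the Pdcd1 and 61 in the Cxcr3 comparison. Another draw of cells gave 71 in the Cxcr3 and 184 in the CD3 comparison, and no matching on depth gave 261 in the latter. Leaving out a mouse gave 388 to 766, 47 to 126, 93 to 111, 226 to 389 and 33 to 134.

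Without the mouse as a block, which ignores that both classes come from the same animals, counts were 220, 20, 0, 7 and 41. For the 0, 141 genes had an unadjusted p under 0.05. In that no replicate block fit Cxcl10 differed by 1.93 (adjusted p = 0.40) and Cxcl16 by 0.30 (adjusted p = 0.92) in the Cxcl9 comparison.

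Among members, Cxcl16 in the Cxcl9 comparison was 0.30 with DESeq2 (adjusted p = 0.47), 0.30 without cells of conflicting lineage and 0.29 to 0.32 with a mouse left out, and Cxcl10 was 1.74 to 2.07. Cxcr6 in the Pdcd1 comparison was 1.28 with DESeq2, 0.48 with subcluster matching, 1.06 without cells of conflicting lineage and 0.75 to 1.72 with a mouse left out, and Cxcr3 there was -0.55 with 2 UMIs and -0.45 to -0.01 with a mouse left out. Cxcr3 in the Cxcr6 comparison changed sign between -0.20 and 0.30 with a mouse left out, and Cxcr6 in the Cxcr3 comparison between -0.049 and 0.15, with -0.095 when matched without subcluster. In the CD3 comparison Cxcr3 was 1.06 with no filter (adjusted p = 0.014), 0.53 with another draw (adjusted p = 0.28), 0.29 without cells of conflicting lineage (adjusted p = 0.87) and 0.76 to 1.31 with a mouse left out, and Cxcr6 was -0.014 without cells of conflicting lineage and -0.12 to 1.80 with a mouse left out. The CD3 values without cells of conflicting lineage came from mice 1 and 3 only. The causes were not tested.

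The alternatives inside single clusters were chosen after seeing the data. They gave 59 calls (Cd3g cluster) in the Cxcr6 comparison, with Cxcr3 at -0.46 in the Pdcd1 cluster, 12 (Cd3g) and 52 (Pdcd1) in the Cxcr3 comparison, with Cxcr6 at -0.0040 in the Pdcd1 cluster, and 111, 163 and 18 in subclusters 2, 4 and 6 of the Cxcl9 comparison, with Cxcl16 at -0.47 in subcluster 6. Fewer cells and genes enter them. The level of Cxcl16 in subcluster 12 was 638 CPM in thinned cells against 570 CPM.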
